A study of Homo sapiens with 4 samples.

Results

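The genes encoding NRF2 (NFE2L2), its inhibitor KEAP1 and 7 of the antioxidant enzymes that NRF2 switches on were followed through 4 RNA sequencing libraries of BEAS-2B cells, an established line of immortalized human bronchial epithelial cells. The 9 symbols NFE2L2, KEAP1, HMOX1, NQO1, GCLC, GCLM, TXNRD1, TXN and SRXN1 were taken as a list of symbols, with no measured value in the rule, and all 9 were found among the 24424 symbols of the count files. Control cells received neither peptide nor LPS. LPS cells received bacterial lipopolysaccharide for 2 hr. WT PDZ+LPS (wild-type peptide) and mut PDZ+LPS (mutant peptide) cells were given a peptide for 24 hr before the same 2 hr of LPS. Both peptides derive from the first PDZ domain of the tight junction protein ZO-1 and carry a Tat segment for cell entry and a FITC label, and mut PDZ differs by the change of a glycine pair to an alanine pair. Peptide without LPS was not analysed here, so each peptide can be read only on top of LPS.

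NRF2 is a transcription factor whose amount is held down by KEAP1, which passes it to a CUL3 ubiquitin ligase for destruction. Oxidants and electrophiles modify cysteines of KEAP1, NRF2 then escapes degradation, pairs with a small MAF protein and binds antioxidant response elements in front of its target genes. In airway epithelium this programme meets inhaled oxidants and smoke. Because NRF2 is controlled largely at the protein level, the NFE2L2 transcript measures its messenger RNA and not its activity.

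Because a single library stands for each condition, none of the differences could be checked against replicates, and p-values are not given. Intervals are at 95%, exact binomial (Clopper-Pearson) for the ratio of 2 libraries and exact Poisson for a level. They reflect counting error alone, as there is 1 library per condition. The reads carry no molecular identifiers and cannot be taken as independent molecules, so the intervals may be too narrow even for counting error. Library totals ran from 19682929 counts in mut PDZ+LPS to 25155647 in LPS. Levels are counts divided by a size factor per library, called normalized counts. In a bulk library, fewer cells that express a gene and less RNA of it per cell cannot be told apart. All 8 epithelial markers examined averaged 16 normalized counts or more over the libraries, although EPCAM had only 34.81 to 49.48. Their summed level was 107400 in mut PDZ+LPS against 75620 to 80550 in the other 3. KRT5, KRT7, KRT8, KRT17 and KRT18 were highest in mut PDZ+LPS, with 51660 from KRT7 alone. CDH1 was lowest there, at 361.9 against 551.8 to 620, and KRT19 and EPCAM lay within the range of the other libraries. Of the markers of other cell types, 1 of 6 fibroblast genes (COL1A1), 1 of 6 leukocyte genes (CD14) and 1 of 4 endothelial genes (KDR) reached that mean, and PTPRC, COL3A1 and LUM were at 0 in every library. Counts of mut PDZ+LPS also followed transcript length and GC content, which bears on every value that involves this library.

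Antioxidant response elements were looked for in RefSeq promoter windows of GRCh38.p14, which cover each gene's start site and the bases just upstream. The core TGACNNNGC, read on both strands, was present in 13.3% of 35116 windows. Of the members, 8 had an entry, with 11 windows (HMOX1 had none), and 4 of these windows held the core, in KEAP1, GCLM and TXNRD1. A longer form with A on either side of the core, which contains the core, was present in 0.746% of all windows and in 3 of the members' 11, against 1 of the 46 windows (2.17%) of the other listed NRF2 targets. These 3 matches are shown because they are the closest to the full element. They are printed 5′ to 3′ along the strand of the gene with the 11-letter match in capitals, and each match lies on the opposite strand, so that the capitals are the reverse complement of the element:
KEAP1: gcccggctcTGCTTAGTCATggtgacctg
GCLM: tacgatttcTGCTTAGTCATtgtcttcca
TXNRD1: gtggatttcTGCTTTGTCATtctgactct
The KEAP1 stretch lies at chr19:10502784-10502812 on the minus strand, and its match ends 22 bases before the start site. The GCLM stretch lies at chr1:93909446-93909474 on the minus strand, 25 bases before the start site, and has the same 11 letters as KEAP1. The TXNRD1 stretch lies at chr12:104286920-104286948 on the plus strand, 93 bases before the start site. GENCODE 29 annotates an exon of the same gene over part or all of each stretch. Of the 35 other listed NRF2 target genes with a window, 16 held the core (45.7%), against 16.1% of all 27305 genes. A match is a description of the letters and not evidence of binding.

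**Figure D1:**
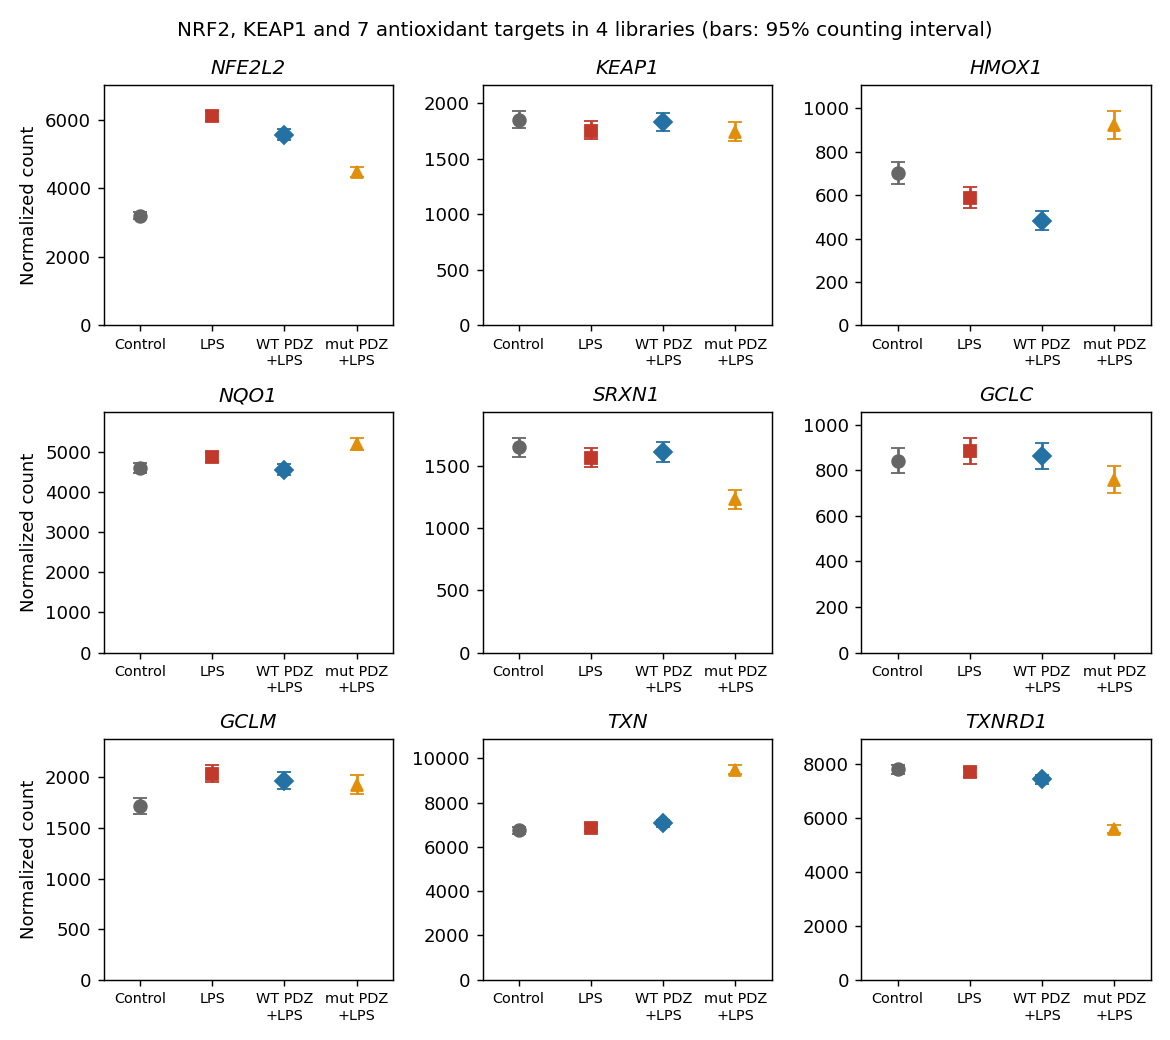
Normalized counts (y axis, from 0) of the 9 genes in the 4 libraries (x axis), with bars for the exact Poisson 95% counting interval. NFE2L2 was lowest in Control at 3198 and highest in LPS at 6109, HMOX1 was highest in mut PDZ+LPS at 922.4, and KEAP1 stayed between 1746 and 1855.

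None of the 9 genes differed by 2-fold or more in any of the 6 comparisons between libraries. The call used throughout was a difference of at least 2-fold with at least 16 normalized counts in at least 1 of the 2 libraries. It was met by 4.87% of all genes in LPS/Control. The share was 4.7% for WT PDZ+LPS/Control and 8.09% for mut PDZ+LPS/Control. Against LPS it was 1.37% with the wild-type peptide and 3.95% with the mutant peptide, and between the peptides it was 4.26%. With upper-quartile scaling HMOX1 just passed 2-fold between the peptides. With shares this low over all genes, 0 of 9 is near the background. At 1.5-fold, NFE2L2 was the 1 member called in LPS/Control, where 11.5% of all genes were called, and in WT PDZ+LPS/Control, where the share was 11.2%. HMOX1 was the 1 member called at 1.5-fold in mut PDZ+LPS/LPS (17.7% of all genes) and also between the peptides (19.1%). No member was called at 1.5-fold in mut PDZ+LPS/Control (23.6%) or in WT PDZ+LPS/LPS (4.31%). Between the lowest and the highest of the 4 libraries, HMOX1 differed 1.92-fold and NFE2L2 1.91-fold, TXN 1.41-fold, TXNRD1 1.39-fold and SRXN1 1.34-fold. GCLM, GCLC, NQO1 and KEAP1 spanned 1.18-fold, 1.17-fold, 1.14-fold and 1.06-fold.

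The levels per kilobase of the longest coding transcript in GENCODE 29 ordered the 9 genes. In Control, TXN led with 7760 normalized counts per kilobase, followed by TXNRD1 with 1820, NQO1 with 1580 and NFE2L2 with 1120. KEAP1 (628) and SRXN1 (612) came next and did not differ beyond their counting intervals of 601 to 655 and 585 to 640. HMOX1 (385, interval 358 to 412) and GCLM (354, interval 338 to 370) also overlapped, and GCLC was lowest with 221. Thioredoxin and its reductase were thus the most abundant transcripts of the set on this scale. In LPS, NFE2L2 with 2140 per kilobase stood above TXNRD1 with 1800 and NQO1 with 1670. HMOX1 stood below GCLM in LPS, at 323 against 419 per kilobase. In mut PDZ+LPS, HMOX1 (506, interval 471 to 543) and SRXN1 (457, interval 430 to 485) overlapped. These levels are as counted and without the length correction.

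The question of LPS/Control was how this programme stood 2 hr after bacterial lipopolysaccharide, and among the 9 genes the transcript of the regulator differed most. NFE2L2 had 3198 normalized counts in Control, 6109 after LPS alone, 5565 with the wild-type peptide and 4465 with the mutant peptide. Control was the lowest library and the 3 LPS-treated libraries were all above it, with no overlap of counting intervals between any of the 4. Such intervals are narrow at counts this high, and the share of all genes without overlap was not computed. The log2 fold change was 0.93 in LPS/Control (interval 0.87 to 0.99). Against the same Control it was 0.80 with the wild-type and 0.48 with the mutant peptide, the latter 0.56 once corrected for length and GC content of the transcript. These 3 comparisons share the Control library. Exons of NFE2L2 overlap exons of AGPS, an ether lipid synthesis gene on the opposite strand. The study names a directional library kit, but whether the counting used strand is not given in the sources used here. AGPS had 2833 normalized counts in Control and 2756 in LPS, a log2 fold change of -0.04, together with 2965 after the wild-type and 2005 after the mutant peptide.

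KEAP1, the sensor that targets NRF2 for degradation, was the most even member as counted. It had 1855 normalized counts in Control, 1756 after LPS alone, 1832 with the wild-type peptide and 1746 with the mutant peptide. The log2 fold change in LPS/Control was -0.08 (interval -0.17 to 0.01), and its counting interval included 0 in all 6 comparisons. In mut PDZ+LPS/Control it was -0.09 as counted (interval -0.18 to 0.01). After correction for length and GC content it was -0.22, outside that interval, so the evenness did not hold after correction.

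HMOX1 encodes haem oxygenase-1, which splits haem into biliverdin, iron and carbon monoxide and is repressed by BACH1 as well as induced by NRF2. It had 700.6 normalized counts in Control, 587.9 after LPS alone, 480.7 with the wild-type peptide and 922.4 with the mutant peptide, from 805, 625, 476 and 785 counted reads. WT PDZ+LPS was the lowest library and mut PDZ+LPS the highest, with Control and LPS between them. The log2 fold change was -0.25 in LPS/Control (interval -0.41 to -0.10), the only member with an interval below 0 in that comparison. Against Control it was -0.54 with the wild-type peptide and 0.40 with the mutant peptide. After the correction the latter was 0.15, and as counted it lay between the quartiles of genes of like transcript length.

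NQO1 encodes a quinone reductase and is a classical NRF2 target. It had 4595 normalized counts in Control, 4874 after LPS alone, 4556 with the wild-type peptide and 5196 with the mutant peptide. The log2 fold change of 0.08 in LPS/Control was small and had an interval of 0.03 to 0.14. It was 0.02 with upper-quartile scaling and -0.05 with total-count scaling, so its sign depended on the scaling.

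GCLC and GCLM encode the catalytic and the modifier subunit of glutamate-cysteine ligase, which makes the first intermediate of glutathione. GCLC had 841.6, 884.2, 862.4 and 756.7 normalized counts in Control, after LPS alone, with the wild-type and with the mutant peptide. GCLM had 1718, 2035, 1968 and 1929 in the same order. As counted, GCLC was lowest in mut PDZ+LPS, whereas GCLM was lowest in Control. The log2 fold change of GCLC in mut PDZ+LPS/Control was -0.15 as counted and 0.04 after correction for length and GC content. That of GCLM was 0.17 and 0.39. In LPS/Control the log2 fold change was 0.07 for GCLC (interval -0.06 to 0.20) and 0.24 for GCLM (interval 0.16 to 0.33).

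TXN (thioredoxin), TXNRD1 (the cytosolic reductase that recharges it with NADPH) and SRXN1 (sulfiredoxin, which repairs overoxidized peroxiredoxins) complete the set. TXN had 6745, 6856, 7056 and 9483 normalized counts in Control, after LPS alone, with the wild-type and with the mutant peptide. TXNRD1 had 7801, 7689, 7431 and 5595 in the same order, and SRXN1 had 1652, 1567, 1614 and 1233. For all 3 genes the mut PDZ+LPS library stood apart from the other 3 as counted, above them for TXN and below them for TXNRD1 and SRXN1. In mut PDZ+LPS/Control the log2 fold changes of TXN, TXNRD1 and SRXN1 were 0.49, -0.48 and -0.42 as counted. After correction for length and GC content they were 0.18, -0.25 and -0.43. In LPS/Control their log2 fold changes were 0.02, -0.02 and -0.08, and each counting interval included 0. GENCODE 29 names 7 TXN pseudogenes, none of them a symbol in the files, and how reads that fit both were counted is not given.

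Across the 9 genes the median log2 fold change in LPS/Control was 0.02, beside -0.001 for the 13072 genes that averaged 16 or more normalized counts. The counting interval lay above 0 for 3 members, NFE2L2, NQO1 and GCLM, and below 0 for HMOX1. The share of all genes with such intervals was not computed, and the NQO1 value changed sign with total-count scaling. Without NFE2L2 the other members ranged from -0.25 to 0.24.

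WT PDZ+LPS/LPS set cells given the WT PDZ peptide before LPS against cells given LPS alone, and the members differed little. The median log2 fold change of the 9 genes was -0.05, against 0.01 for all genes. No member had an interval above 0, and 4 had one below 0. No share of such intervals over all genes was computed to set beside this count. HMOX1 had the lowest value, -0.29 (interval -0.47 to -0.12). NFE2L2 had -0.13 (interval -0.19 to -0.08), NQO1 had -0.10 (interval -0.16 to -0.04) and TXNRD1 had -0.05 (interval -0.0949 to -0.0036). The other 5 ranged from -0.05 for GCLM to 0.06 for KEAP1. NFE2L2 in WT PDZ+LPS remained above Control, by 0.80 on the log2 scale, and HMOX1 lay further below Control than in LPS.

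**Figure D2:**
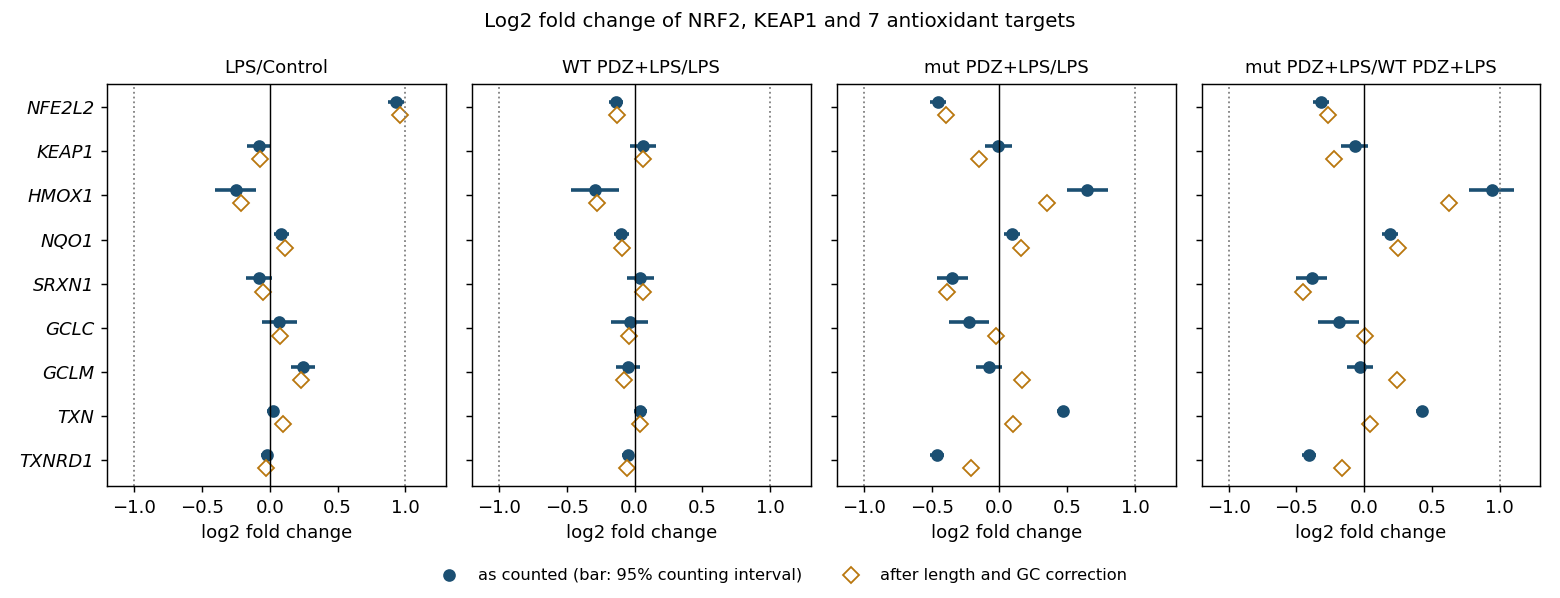
Log2 fold change (x axis) of each of the 9 genes (rows) in 4 comparisons (panels). Filled points with bars are values as counted with their 95% counting intervals, open diamonds are values corrected for length and GC content of the transcript, and dotted lines mark 2-fold. NFE2L2 lies near the 2-fold line in LPS/Control at 0.93, and HMOX1 moves from 0.94 as counted to 0.62 after correction in mut PDZ+LPS/WT PDZ+LPS.

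The mut PDZ+LPS library carried a trend with transcript length and with GC content. Over the 11751 genes with a length, the Spearman correlation of transcript length with the log2 ratio of mut PDZ+LPS to LPS was -0.603. It runs across genes of 1 pair of libraries, which are not replicates. The correlation was -0.612 when mut PDZ+LPS was set against WT PDZ+LPS and -0.451 when it was set against Control. Without the mut PDZ+LPS library it was 0.0736 for WT PDZ+LPS/LPS and 0.154 for LPS/Control. Short transcripts were thus counted relatively more often in this library. The correlation of GC content with the log2 ratio was 0.413 for mut PDZ+LPS/LPS, 0.431 for mut PDZ+LPS/WT PDZ+LPS and 0.349 for mut PDZ+LPS/Control. For WT PDZ+LPS/LPS it was -0.0887 and for LPS/Control -0.0184. After the correction, the correlation with length was 0.0917 for mut PDZ+LPS/LPS. TXN, with 869 bases, has the shortest transcript of the members, and GCLM, with 4857, the longest. Fold changes that involve mut PDZ+LPS are given as counted unless they are said to be after a correction for length and GC content.

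In mut PDZ+LPS/LPS, HMOX1 was the highest member, with a log2 fold change of 0.65 (interval 0.50 to 0.80) as counted and 0.35 after correction. TXN was 0.47 as counted and 0.10 after correction. The 588 genes in the same bin of transcript length as TXN had a median of 0.46, so TXN stood where transcripts of its length stood. HMOX1 stood above its own length group of 588 genes, of which the median was 0.22 and the upper quartile 0.40. The length groups do not account for GC content, which was 58.1% for the HMOX1 transcript.

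At the lower end, TXNRD1 had -0.46, NFE2L2 -0.45, SRXN1 -0.35 and GCLC -0.22 in mut PDZ+LPS/LPS, and the counting intervals of all 4 lay below 0. Those of 3 other members lay above 0, and the share of all genes with intervals on either side was not computed. After correction NFE2L2 had -0.39 and SRXN1 -0.39, TXNRD1 had -0.21 and GCLC had -0.03. NFE2L2, SRXN1 and TXNRD1 lay below the lower quartile of their length groups, at -0.16 for the first 2 genes and -0.37 for TXNRD1. AGPS, which overlaps NFE2L2, had -0.46 in the same comparison, and its part in the NFE2L2 value was not tested. GCLC, GCLM, KEAP1 and NQO1 lay between the quartiles of theirs. NQO1 had 0.09 (interval 0.03 to 0.15), GCLM -0.08 and KEAP1 -0.01 as counted. After correction these values were 0.16, 0.17 and -0.15, so that GCLM changed sign.

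**Figure D3:**
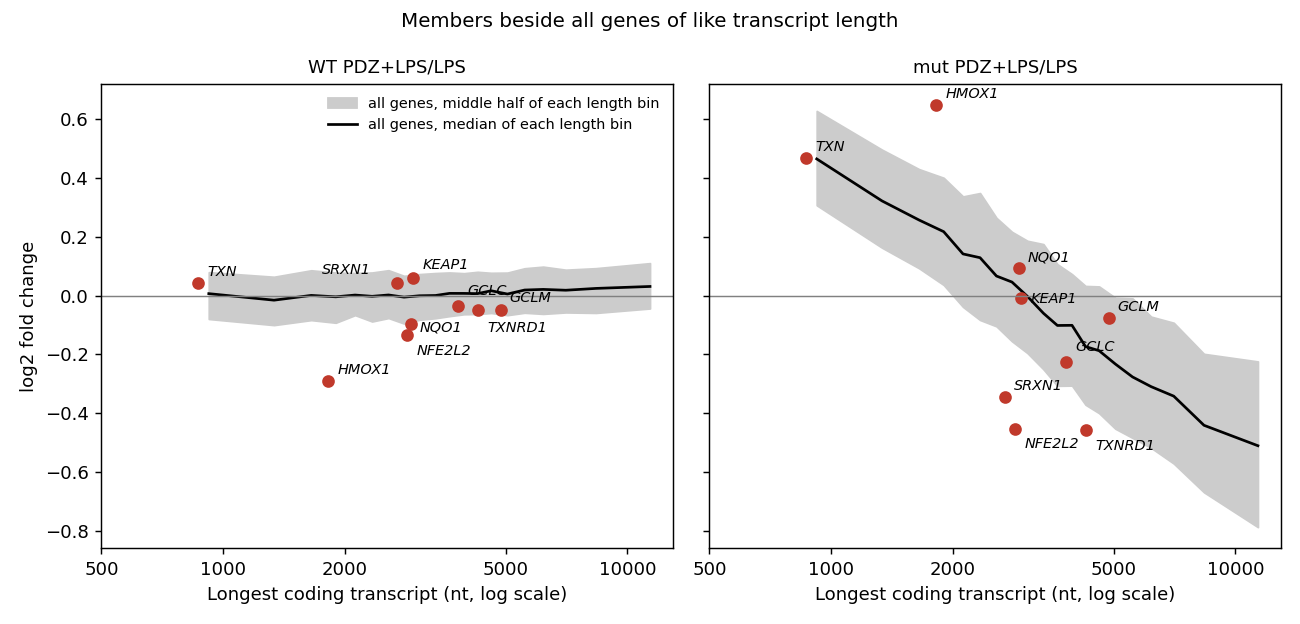
Log2 fold change (y axis) against the length of the longest coding transcript (x axis, log scale) for the 9 genes (points) in WT PDZ+LPS/LPS (left) and mut PDZ+LPS/LPS (right). The line and the band are the median and the quartiles of all genes in bins of length. In mut PDZ+LPS/LPS, TXN at 0.47 sits on the line, HMOX1 at 0.65 lies above the band, and NFE2L2 (-0.45), SRXN1 (-0.35) and TXNRD1 (-0.46) lie below it.

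The peptides were given at the same times, and mut PDZ+LPS/WT PDZ+LPS compared them directly in 1 library each. HMOX1 differed most, with a log2 fold change of 0.94 (interval 0.77 to 1.11) as counted and 0.62 after correction, so that the library with the altered glycine pair had the higher value. TXN had 0.43 (0.05 after correction) and NQO1 had 0.19 (interval 0.13 to 0.25, 0.25 after correction). TXNRD1 had -0.41 (-0.16 after correction), SRXN1 -0.39 (-0.45), NFE2L2 -0.32 (-0.27) and GCLC -0.19 (0.01). For KEAP1 the value was -0.07 with an interval of -0.17 to 0.03, and for GCLM it was -0.03 with an interval of -0.12 to 0.07, so differences up to these bounds lay within counting error. After correction these values were -0.23 and 0.24. HMOX1 kept the highest value after correction, and SRXN1 then had the lowest, followed by NFE2L2.

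The genes nearest to NFE2L2 in pattern, by the root mean square difference of the 3 log2 fold changes against Control over 4 libraries, were PPAPDC2 (0.036), GPX3 (0.036) and TRAF3 (0.041). GPX3, a secreted glutathione peroxidase, had 174.1, 345.2, 309 and 247.9 normalized counts in Control, after LPS alone, with the wild-type and with the mutant peptide. TRAF3, an adaptor of innate immune receptors, had 1163, 2137, 1994 and 1666. Those nearest to HMOX1 were ZNF789 (0.047), HHLA3 (0.070) and FAM195A (0.076), at lower levels, with ZNF789 between 74.72 (wild-type peptide) and 133.9 (mutant peptide).

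The rest of the pathway was described with 6 further lists of 67 genes, of which 63 averaged 16 or more normalized counts. Their joint median in LPS/Control was 0.05, and 3 of the 63 were called at 2-fold, all higher, beside 4.87% of all genes. Of the 19 regulators and partners of NRF2, MAFF, a small MAF protein with which NRF2 binds DNA, had 277.6 normalized counts in Control, 1991 after LPS alone, 1786 with the wild-type peptide and 2297 with the mutant peptide, a log2 fold change of 2.84 in LPS/Control (interval 2.67 to 3.02). BACH1, the repressor that competes for the same elements, had 847.7, 1925, 1861 and 1276, a log2 fold change of 1.18 in LPS/Control (interval 1.07 to 1.29). BTRC, part of a ubiquitin ligase that recognizes NRF2 independently of KEAP1, was the lowest of this list with -0.46. Transcripts for the activator NRF2, for a partner and for a repressor were thus all higher in LPS than in Control.

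Of the glutathione and cystine genes, CHAC1, which breaks glutathione down, had 49.61, 151.4, 119.2 and 170.4 normalized counts in the 4 libraries and a log2 fold change of 1.59 in LPS/Control (interval 1.17 to 2.07). SLC7A11, the cystine carrier, had 427.3, 649.1, 578.6 and 317.2. The log2 fold change of SLC7A11 was 0.60 in LPS/Control and -1.03 in mut PDZ+LPS/LPS (interval -1.24 to -0.83), and the latter was -0.56 after correction. The 6 NADPH genes had a median of -0.02 in LPS/Control. None was called at 1.5-fold in any comparison, beside 4.31% to 23.6% of all genes, so none of 6 is near the background. Among the 7 iron and haem genes FTH1, the ferritin heavy chain, had 39130, 67840, 65870 and 72480 normalized counts, a log2 fold change of 0.79 in LPS/Control. It was chosen after its values were seen, as the highest of its list in that comparison, and FTH1 has near-identical copies with which reads may be shared. The other 6 genes of the list were lower in LPS than in Control, and the list median was -0.08. TRIM16, of the list of other targets, had 339.4, 668.8, 616 and 697.9, which passed 2-fold in mut PDZ+LPS/Control with a log2 fold change of 1.04 (1.11 after correction), and its copy TRIM16L may share reads.

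**Figure D4:**
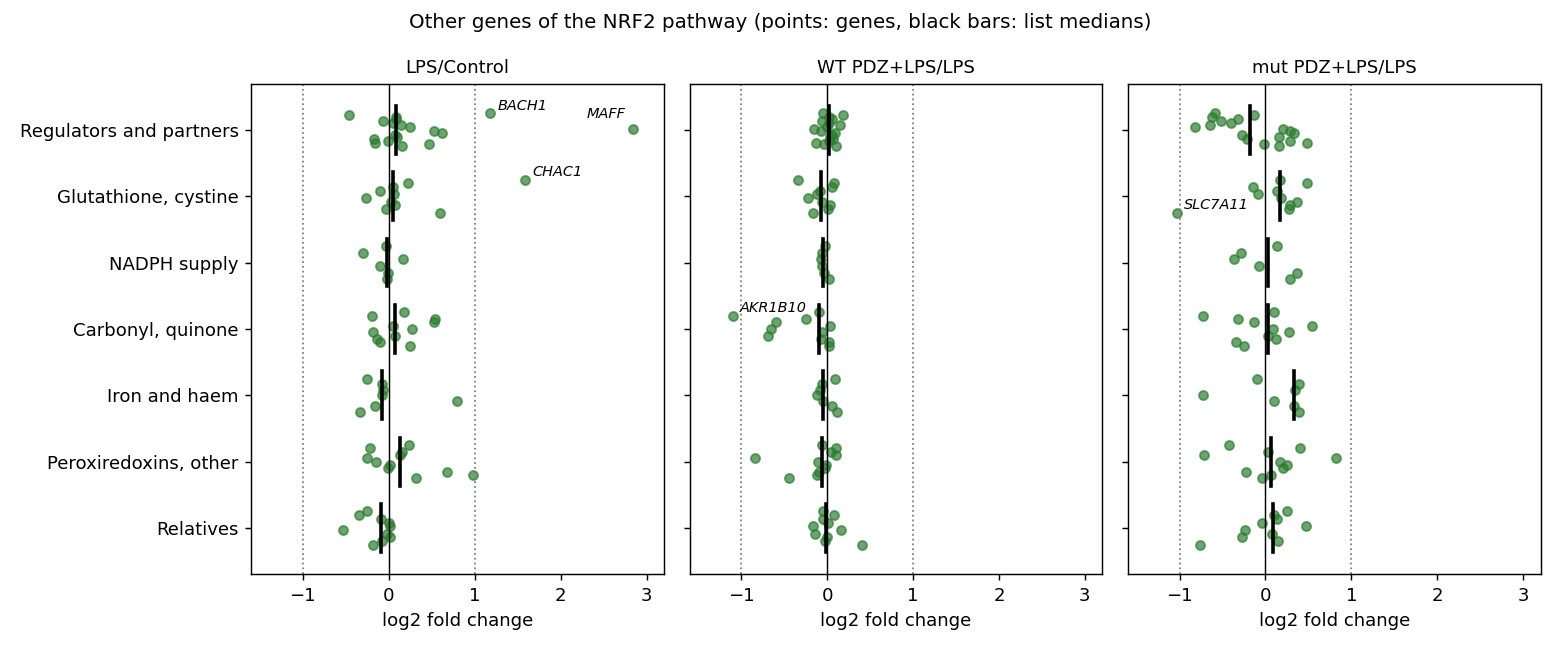
Log2 fold change (x axis) of the measured genes (points, averaging 16 or more normalized counts) in 7 further lists (rows) in 3 comparisons (panels), with black bars for list medians and dotted lines at 2-fold. In LPS/Control MAFF (2.84), CHAC1 (1.59) and BACH1 (1.18) pass 2-fold, in WT PDZ+LPS/LPS AKR1B10 (-1.10) does, and in mut PDZ+LPS/LPS SLC7A11 (-1.03) does.

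In WT PDZ+LPS/LPS the median of the 63 genes was -0.04. AKR1B10, an aldo-keto reductase, was the 1 gene called, with 38 reads in LPS and 16 in WT PDZ+LPS, a log2 fold change of -1.10 (interval -2.09 to -0.27), beside 1.37% of all genes. The lowest values after it were those of OSGIN1, with 20 and 10 reads, at -0.84 (interval -2.16 to 0.26), and of CBR3, a carbonyl reductase, at -0.68 (interval -1.07 to -0.32). The carbonyl and quinone list, with 11 genes measured, had the lowest median of the 6, -0.09, with 5 intervals below 0 and none above. No share of such intervals over all genes was available to set beside this. AKR1B10 and OSGIN1 rest on few reads, and AKR1B10 has close relatives with which reads may be shared. Among the genes of all 7 lists that averaged 16 or more normalized counts, the highest values were those of TXNRD3 (0.41), BTRC (0.19) and SESN2 (0.16), and the counting interval of each included 0.

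In mut PDZ+LPS/LPS the median of the 63 genes was 0.08 as counted and -0.09 after correction. Of the 67 listed genes, SLC7A11 was called lower and GGT1 higher, beside 3.95% of all genes. SLC7A11 fell short of 2-fold after correction, at -0.56. GGT1, an enzyme of glutathione breakdown, averaged below 16 normalized counts. It had 14 reads against 6, a log2 fold change of 1.39 (interval 0.07 to 3.21). GSK3B, a kinase that marks NRF2 for BTRC, had -0.82 as counted and -0.36 after correction. The highest among the measured genes were OSGIN1 with 0.82, AKR1C3 with 0.54 and GLRX, a glutaredoxin, with 0.48, and after correction these had 0.49, 0.39 and 0.25. BACH1 had -0.59 as counted and -0.27 after correction. The iron and haem list had a median of 0.33 as counted and -0.20 after correction, so its direction changed with the correction.

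In mut PDZ+LPS/WT PDZ+LPS the median of the 63 genes was 0.19 as counted and -0.04 after correction. OSGIN1 had the highest value, 1.66 (interval 0.68 to 2.96) as counted and 1.33 after correction, on 29 reads against 10. ALDH3A1, an aldehyde dehydrogenase, had 0.73 as counted and 0.37 after correction, and CBR3 had 0.71 and 0.22. SLC7A11 had -0.86 as counted and -0.34 after correction, and GSK3B had -0.82 and -0.32.

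A last list held 10 relatives of the members by family or function, some of which, such as SESN2, can also respond to NRF2. HMOX2, the constitutive haem oxygenase, had 1110, 928.5, 900.7 and 1101 normalized counts in Control, after LPS alone, with the wild-type and with the mutant peptide. HMOX2 and HMOX1 had log2 fold changes of -0.26 and -0.25 in LPS/Control. Between the peptides HMOX2 was 0.29 as counted and 0.07 after correction, beside 0.94 and 0.62 for HMOX1. NQO2 had 450, 353.7, 372.6 and 379.5 in the same order, a log2 fold change of -0.35 in LPS/Control. The mitochondrial thioredoxin TXN2 had 1730, 1709, 1553 and 1795, and its reductase TXNRD2 had 659.7, 625.6, 616 and 690.9. TXNRD3 had 66.14, 58.32, 77.75 and 34.07, a log2 fold change of -1.17 in mut PDZ+LPS/WT PDZ+LPS (interval -1.86 to -0.56) and -1.11 after correction. SESN2, a stress-induced sestrin, had the lowest value of the 10 relatives in LPS/Control, -0.54 (interval -0.75 to -0.33). The median of the 10 relatives in LPS/Control was -0.09, beside 0.02 for the 9 members, a difference that was not tested.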

How the data were processed

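BEAS-2B RNA was sequenced by the study in 4 libraries, 1 per condition. The authors deposited unnormalized read counts, listed by gene symbol. The submitters' processing notes name hg19 and TopHat. A directional library kit, FPKM and geometric normalization are mentioned in the study's methods. The counting tool, its annotation and its use of strand are not given in the sources used here. The deposited counts are whole numbers and totalled 24823347 for Control, 25155647 for LPS alone, 23446600 for the wild-type and 19682929 for the mutant peptide.

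Counts were divided by median-of-ratios size factors over all genes (DESeq2 1.42.0 in R 4.3.3; 1.149, 1.063, 0.990 and 0.851 in the same order), and log2 fold changes were taken after adding 1 normalized count. No test across genes was possible with 1 library per condition. The correction removed a lowess trend (span 0.3) on length and then on GC content of the longest coding transcript in GENCODE 29, for 11751 of 13072 genes. Alternatives were scaling by TMM (edgeR 4.0.16), by upper quartile and by total count, a pseudocount of 5, fold thresholds of 1.5 and 3, no expression rule and a rule of 64 normalized counts. The steps were tested on simulated data. Other software was Python 3.11.15 with scipy 1.17.1, numpy 2.4.6, statsmodels 0.14.6, pandas 2.3.3 and matplotlib 3.10.9.

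The members, lists and alternatives were chosen with earlier results of these data known. The genes named were all 9 members, list genes called at 2-fold in any comparison, the 3 highest and 3 lowest list genes in LPS/Control, in each peptide library against LPS and between the peptide libraries, 5 relatives (HMOX2, NQO2, TXN2, TXNRD2 and TXNRD3), and the 3 nearest in pattern to each member with a 1.5-fold difference between libraries. FTH1 and a few further genes (such as AGPS and the cell type markers) were named outside this rule. Promoter sequences are from RefSeq (GRCh38.p14), and no coordinate of the files was used.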

Additional observations from a re-analysis of the deposited data

Results flagged for a closer look

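Against the shared LPS library, HMOX1 lay in opposite directions with the 2 peptides, at a log2 fold change of -0.29 with the wild-type peptide (WT PDZ+LPS) and 0.65 with the mutant peptide (mut PDZ+LPS). NQO1 did so at a smaller size, with -0.0972 and 0.0923. Each direction rests on 1 library, and the difference was not tested. After correction for length and GC content the HMOX1 values were -0.28 and 0.35, and those of NQO1 were -0.09 and 0.16.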

How the results depend on the processing

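No member value of 0.20 or more in size changed sign under any scaling, pseudocount or correction tried. Of 54 member values, TMM and a pseudocount of 5 moved none beyond its counting interval, while total-count scaling moved 21, upper-quartile scaling 16 and the length and GC correction 24, by at most 0.13, 0.07 and 0.38. Total-count scaling shifts the median of all genes by -0.13 in LPS/Control. The members' median in LPS/Control was -0.11 with total-count scaling, -0.0379 with upper-quartile scaling and 0.0736 after the correction. In WT PDZ+LPS/Control it was -0.14 and -0.0745 with these 2 scalings, and in mut PDZ+LPS/Control it was 0.069 with total-count scaling. At 1.5-fold, 1 member was called in LPS/Control and WT PDZ+LPS/Control (NFE2L2), and 1 in mut PDZ+LPS/LPS and between the peptides (HMOX1). With upper-quartile scaling HMOX1 passed 2-fold in mut PDZ+LPS/WT PDZ+LPS, a count of 1. A threshold of 3-fold, no expression rule and a rule of 64 normalized counts left every count at 0. No paired analysis was possible because each condition had 1 library.

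With 1 library per condition, variation between cultures is unknown. The length and GC trends of the mut PDZ+LPS library cannot be told apart from the mut PDZ condition. The levels are of RNA at a single time, and NRF2 protein was not measured here.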
